A study of Sus scrofa with 32 samples.

Results

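H3K4me3, histone H3 trimethylated at lysine 4, was profiled by CUT&Tag in proliferating porcine muscle satellite cells with and without SGC-CBP30, an inhibitor of the bromodomains through which the acetyltransferases CBP and p300 bind acetylated histones. Of the 32 samples of the series, the 4 H3K4me3 libraries labelled 0 h were taken by their titles: 2 from cells given the inhibitor for 48 h in proliferation (called CBP in the labels) and 2 from untreated cells (called WT). CBP here names a treatment and no altered allele is given for either group. The labels write the dose as 5 uM/ml, a unit that leaves the concentration unclear. A second pair of groups titled 60 h, treated or untreated with 2 libraries each, served to ask whether the response differed with time. Their libraries also entered the gene tests at 0 h, through the choice of genes tested, the estimate of spread and a scaling described below. The treatment protocol gives 60 h of inhibitor in a differentiation phase, but the treatment field of these samples reads cell proliferation, so the phase of the 60 h cells is not settled and the time comparison is between titles. The labels name muscle satellite cells as the cell type but also give C3H as the cell line and RPMI as the medium, and nothing in them says that replicates were separate cultures. The p-values therefore measure the spread between these libraries, which may be technical.

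H3K4me3 marks the nucleosomes around the starts of active and poised genes. It is placed by the SET1 and MLL families of methyltransferases and removed by the KDM5 demethylases, and wide domains of it often lie over genes that define a cell's identity. CBP and p300 acetylate histones at promoters and enhancers, and in muscle they act as partners of the MyoD family of transcription factors. Satellite cells are the stem cells of skeletal muscle, and PAX7, MYF5 and MYOD1 are the transcription factors by which their quiescent, activated and committed states are usually followed.

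The authors deposited a list of peaks for each library, and the measurements below are the positions and widths of those peaks on the pig build Sscrofa11.1. Over the 8 H3K4me3 libraries at 0 h and 60 h, 68.2 to 74.1% of peaks on placed chromosomes lay within 1 kb of an annotated gene end, against 9.03 to 11.14% after all peaks were moved by 200 kb. No source used here gives the read depth, so a library read less deeply and a shorter mark cannot be told apart in any result below. As the cells were profiled in bulk, fewer cells of a type and less of the mark per cell cannot be told apart either. All 8 satellite cell or myoblast markers examined (PAX7, MYF5, MYOD1, DES, CDH15, ITGA7, NCAM1 and CHODL) had a peak in at least 1 library at 0 h, and their summed H3K4me3 length was 15.3 to 15.7 kb in CBP and 23.4 to 24.3 kb in WT. Of the endothelial markers only ERG, 1 of 7, had a base at 0 h, and of the immune markers CD68 and SPI1, 2 of 7. CD68 had 4.22 and 4.59 kb in CBP and 5.02 and 4.71 kb in WT, and SPI1 had 0.267 kb in WT replicate 1 alone. The window of CD68 overlaps those of EIF4A1, FXR2, MPDU1, SENP3 and SOX15, and that of SPI1 overlaps the window of MYBPC3. These bases may therefore belong to neighbouring genes. The endothelial genes PECAM1, CDH5, KDR, TEK, VWF and EMCN and the immune genes PTPRC, CSF1R, CD3E and LCP1 had no listed base in any library at either time. Of the other markers, 5 of 7 for fibroblasts, 3 of 7 for adipocytes, 3 of 6 for pericytes and smooth muscle and 2 of 6 for Schwann cells and neurons had a base at 0 h. The fibroblast markers DCN and LUM had none at 0 h, and the summed length of the fibroblast list was 9.69 to 10.2 kb in CBP and 15.6 to 15.7 kb in WT. The part of other cell types in the results was not tested.

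Peak lists were shorter and narrower in treated cells. The CBP libraries held 15392 and 14898 peaks, against 17092 and 17364 in the WT libraries. These peaks covered 17.3 and 17.4 Mb in CBP, against 21.8 and 22.1 Mb in WT. No CBP library reached any WT library in either measure. Mean covered length was 17.3 ± 0.0940 Mb in CBP and 21.9 ± 0.188 Mb in WT (SD, n = 2 each), a ratio of 0.789. Peaks averaged 1144 ± 32.6 bp in CBP and 1274 ± 3.29 bp in WT. Long peaks were fewer: 79 and 82 peaks exceeded 4 kb in the CBP libraries, against 242 and 231 in the WT libraries, a ratio of means of 0.340. Peaks over 2.5 kb from all gene ends made up 18.4% ± 0.156 in CBP and 22.9% ± 0.348 in WT. Each of these comparisons gave p = 0.33 in an exact permutation test (two-sided), the smallest p that 2 libraries against 2 allow. At 60 h the lists covered 27.6 and 27.5 Mb in CBP and 27.4 and 26.5 Mb in WT, so the deficit of treated cells seen at 0 h was not repeated there.

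**Figure D1:**
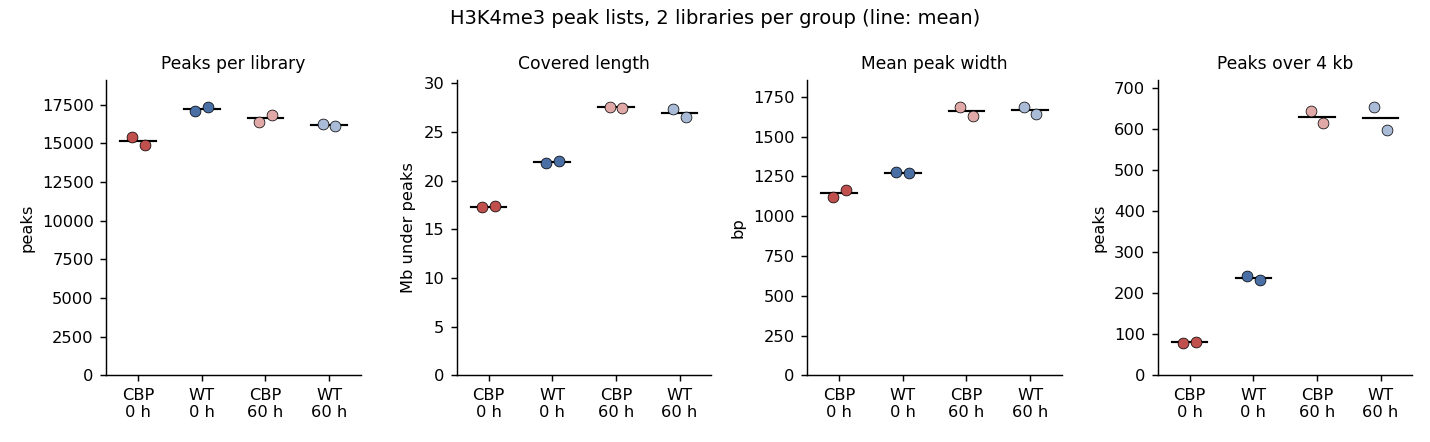
Each point is a library and each line the mean of 2, for the number of H3K4me3 peaks, the Mb under peaks, the mean peak width in bp and the number of peaks over 4 kb. The 2 CBP libraries at 0 h lie lowest in all 4 panels, below the WT libraries at 0 h and below all libraries at 60 h.

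The peaks of the 4 libraries merged into 18170 regions, of which 12803 had a peak in all 4. Of 15454 regions found in both WT libraries, 1990 (12.9%) had no peak in either CBP library and are called lost. Of 13121 regions found in both CBP libraries, 170 (1.30%) were in neither WT library and are called gained. These are counts without a test, and they changed with the peak lists used. With each list cut to 14898 peaks there were 903 lost and 281 gained regions, and with peaks of a deposited -log10 q of at least 5 alone there were 1322 and 120. Without WT replicate 1 the lost regions numbered 3206, and without WT replicate 2 they numbered 3063. Gained regions numbered 343 without CBP replicate 1, 372 without CBP replicate 2 and 268 without WT replicate 1.

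Lost regions were mostly narrow. Of regions on placed chromosomes with a mean width under 500 bp in WT, 51.3% of 2462 were lost, and of those between 500 and 1000 bp, 16.1% of 3643. The share was 1.74% of 5796 regions between 1000 and 2000 bp, 0.164% of 3052 between 2000 and 4000 bp, and 0 of 263 above 4000 bp. Distance from genes went with loss at a given width as well. Between 500 and 1000 bp, 26.0% of regions over 2.5 kb from every gene end were lost, against 12.2% of those nearer, and between 1000 and 2000 bp the shares were 5.95% and 1.03%. Among lost regions on placed chromosomes 45.8% lay that far from gene ends, against 16.2% of the regions held in all 4 libraries. The median lost region was 429 and 422 bp wide in the 2 WT libraries, and held regions had medians of 1392 and 1412 bp there. Across the 19 chromosomes with regions, the share lost ran from 11.12 to 16.92%.

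**Figure D2:**
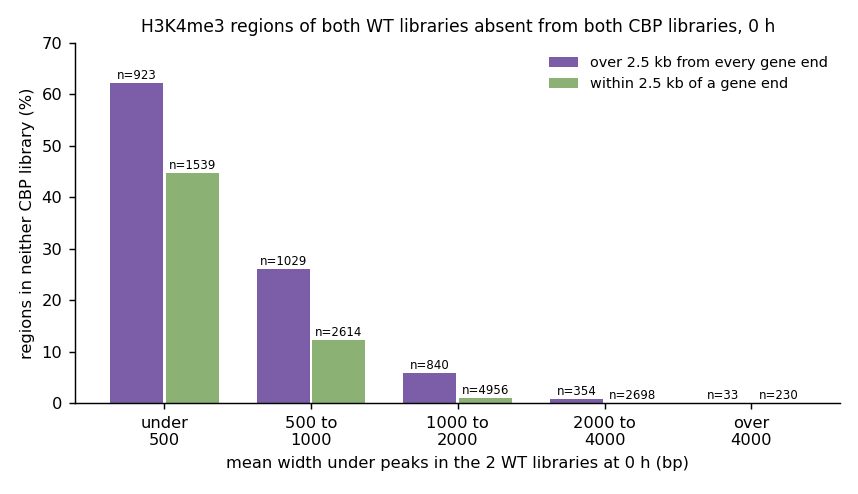
Bars give the percentage of H3K4me3 regions of both WT libraries at 0 h that had no peak in either CBP library, by mean width in WT (bp) and by distance to the nearest gene end; n is the number of regions on placed chromosomes. The share falls from 62.2% far from genes and 44.7% near them under 500 bp to 0 above 4000 bp.

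A few lost regions were wide. The widest lay on chromosome 3 (70573770 to 70577125) over LOC100521659, with 2.79 and 2.37 kb in the WT libraries and none in CBP. Over GFI1, a transcriptional repressor of blood and inner ear development, a region on chromosome 4 (124619486 to 124621892) had 2.33 and 2.41 kb in WT and none in CBP. The GFI1 region carried H3K27me3, the mark of Polycomb silencing, over 2374 and 727 bp in the CBP libraries, against 0 and 490 bp in the WT libraries. A region on chromosome 6 that overlapped no gene had 2.67 and 1.83 kb of H3K4me3 in WT and none in CBP. Its nearest gene, IRF8, an interferon regulatory factor of myeloid cells, lay 190980 bp away. H3K27me3 covered all 2787 bp of the region in both CBP libraries, against 0 and 297 bp in the WT libraries. Another lay inside AKAP6, which anchors protein kinase A at the muscle cell nucleus, with 1.97 and 2.32 kb in WT. The fifth lay over MCPH1 and ANGPT2, a regulator of chromosome condensation and the gene for angiopoietin 2, with 2.08 and 2.13 kb in WT. Gained regions were narrower. The widest, whose nearest gene was MC1R, the melanocortin receptor of pigment cells, had 0.895 and 1.52 kb in CBP and none in WT. The next lay 15172 bp from ZNF184, in STX1A, over LOC110261671 and 30 bp from FCGRT, with at most 1015 bp in any CBP library.

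In the 12803 regions held in all 4 libraries, limma called 3405 narrower (26.6% of those tested) and 113 wider (0.883%) in CBP at an adjusted p below 0.05, with a median log2 change of -0.20. The narrowing was close to proportional over widths. When regions were split into 5 equal classes by their width in WT replicate 1 and compared with WT replicate 2, the median log2 change in CBP replicate 1 was -0.18 in the narrowest class and lay between -0.22 and -0.23 in the other 4. In bp, the widest class had medians of 2363 and 2373 bp in the CBP libraries and 2775 bp in WT replicate 2. Quantile scaling, under which the widths of all 4 libraries follow 1 distribution, moved the median to 0.06 and left 900 narrower and 648 wider. With any 1 library left out, no region was called (0, with 3803 to 4681 narrower at an unadjusted p under 0.05), a fit with 1 residual degree of freedom. Peaks in treated cells were also more broken up: 11.2 and 8.97% of held regions were split into more than 1 peak in the CBP libraries, against 4.18 and 5.05% in the WT libraries.

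Listed H3K4me3 was shorter on both sides of gene ends in treated cells. At 2003 ends of genes of at least 20 kb, with no other gene end within 5 kb and a peak over the end in all 4 libraries, H3K4me3 reached 1116 and 1155 bp into the gene in CBP and 1323 and 1339 bp in WT (means 1135 ± 27.5 and 1331 ± 11 bp). Outward from the gene it covered 436 and 441 bp in CBP and 535 and 547 bp in WT (439 ± 3.59 and 541 ± 8.94 bp). The ratios were 0.853 and 0.810, and each exact permutation test gave p = 0.33. The table of genes gives no strand, so starts and ends of transcription were not separated.

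The broadest domains were held, and most were narrower. All 264 regions with a mean WT width above 4 kb were present in both CBP libraries, and 111 still exceeded 4 kb in CBP. Of the 264, limma called 162 narrower and 0 wider (2 at an unadjusted p under 0.05), beside 26.6% narrower of all held regions. They were chosen by their width in the same WT libraries, which by itself favours narrower calls and fewer regions above 4 kb in CBP. The widest, on chromosome 18 (45393348 to 45415869) over HOXA9 and HOXA10, position genes of the limb and trunk, measured 18677 and 19012 bp in CBP and 21885 and 22338 bp in WT (log2 change -0.23 ± 0.02 SE, adjusted p = 0.0105). HOXC10 on chromosome 5 (19202246 to 19211041) measured 5.55 and 6.39 kb in CBP and 8.41 and 8.48 kb in WT (-0.50 ± 0.08, adjusted p = 0.0222). A region over BRD2, a bromodomain protein, measured 7.36 and 7.39 kb in CBP and 7.95 and 7.98 kb in WT (-0.11 ± 0.02, adjusted p = 0.0377). PCDH7, a protocadherin, had 8.50 and 8.51 kb in CBP and 8.53 and 9.59 kb in WT, and was not called (adjusted p = 0.346).

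For genes, the measure was the number of bases under peaks in windows reaching 5 kb to each side of both gene ends. Of 19550 genes in the table, 12908 were tested and 5164 (40.0%) were shorter and 170 (1.32%) longer in CBP by limma at an adjusted p below 0.05. The median log2 change over all tested genes was -0.18. In all called genes the 2 CBP libraries lay on one side of the 2 WT libraries. A call nearly requires this, and genes not called, such as MYC, ID1 and TGFB1, showed it too, so it is no separate support. Quantile scaling moved the median of all genes to 0.05 and the calls to 1698 shorter (13.2%) and 1811 longer (14.0%), and the counts of each list below are also given under that scaling, which takes out the shift shared by all genes. There, genes with no base at 0 h are left out of the longer ones, which leaves 1794 of all genes. The 1698 genes were all among the 5164, and all 170 longer genes were longer under it too, while 3 genes shorter without scaling were longer with it. Among 425 genes a peak was listed in both WT libraries and in neither CBP library, and among 30 the reverse held. These tests used all 8 H3K4me3 libraries. With only the 4 libraries at 0 h, 4419 of 12056 tested genes were shorter and 135 longer. With windows of 1 kb in place of 5 kb, 3222 genes were shorter and 221 longer. Among genes described below, MYF6, CDH15, HEY1, CDON, CCND1, CCND2, CDKN1A, JUN, JUNB, ID3, COL1A1, HOXB7, LEF1, ZMAT3, ACTA2, ZNF777, GPI and RCOR2 were no longer called with that narrower window.

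Most tested genes of the myogenic list were shorter. MYOD1, the factor that commits cells to muscle (chromosome 2, 41422522 to 41424236), had no listed base in either CBP library, against 1.13 and 0.857 kb in the WT libraries (adjusted p = 0.0002). That call was lost at a -log10 q of at least 5 and with lists of equal length. MYF5, the earliest myogenic factor in satellite cells (chromosome 5, 100753440 to 100755558), had 2.38 and 2.30 kb in CBP and 4.25 and 4.52 kb in WT (log2 change -0.78 ± 0.04 SE, adjusted p = 0.0002). MYF6, which shares its window with MYF5, had none in CBP and 0.531 and 0.979 kb in WT. PAX7 (chromosome 6, 77160827 to 77268626) had 4.55 and 3.75 kb in CBP and 5.37 and 5.47 kb in WT (-0.35 ± 0.09, adjusted p = 0.0205), and PAX3, its paralogue in embryonic muscle progenitors, had 1.17 and 1.22 kb in CBP and 1.59 and 1.72 kb in WT (-0.35 ± 0.05, adjusted p = 0.0031). Neither passed after quantile scaling (adjusted p = 0.357 and 0.131), and the call of PAX7 also ended without CBP replicate 2, without WT replicate 1, without WT replicate 2 and with lists of equal length. MSC, the repressor musculin, had 3.24 and 3.20 kb in CBP and 4.77 and 4.60 kb in WT (-0.48 ± 0.04, adjusted p = 0.000664). Of the 22 tested genes of the myogenic list 15 were shorter and 0 longer (with quantile scaling 9 shorter and 1 longer), with a median log2 change of -0.38.

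**Figure D3:**
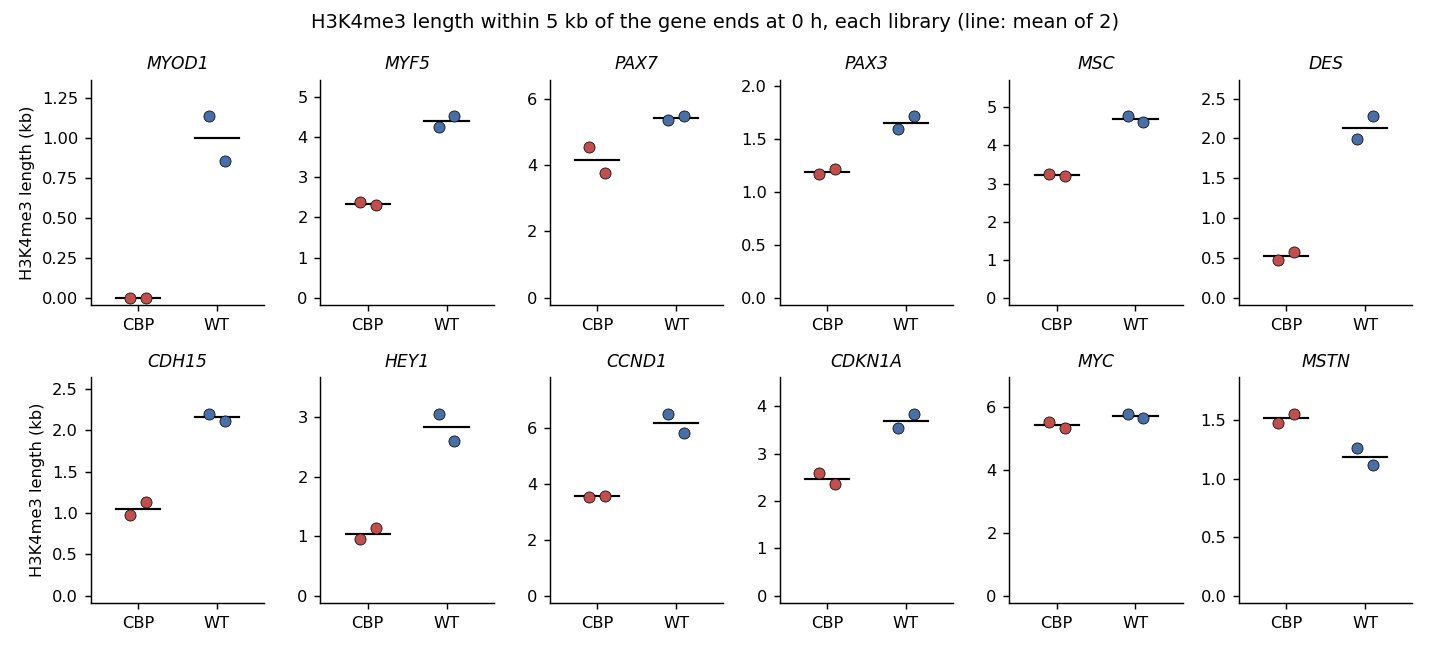
H3K4me3 length in kb within 5 kb of the gene ends for 12 genes at 0 h, with the 2 CBP libraries on the left and the 2 WT libraries on the right of each panel and a line at each mean. The CBP points lie below the WT points for all genes shown except MSTN, where they lie above; MYC is the one gene of the 12 that limma did not call.

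Of 25 tested satellite cell and progenitor genes 16 were shorter and 0 longer (with quantile scaling 8 shorter and 2 longer), and 9 were not called. Of these 9, SDC4, a syndecan, had 2.21 and 2.22 kb in CBP and 1.98 and 1.99 kb in WT, and CXCR4, a chemokine receptor, had 2.09 and 2.21 kb in CBP and 2.24 and 2.13 kb in WT. DES, the muscle intermediate filament desmin, had 0.481 and 0.578 kb in CBP and 1.99 and 2.28 kb in WT (log2 change -1.36 ± 0.08, adjusted p = 0.000205). CDH15, the muscle cadherin, had 0.978 and 1.13 kb in CBP and 2.20 and 2.12 kb in WT (-0.78 ± 0.06, adjusted p = 0.000478). HEY1, a Notch target in satellite cells, had 0.947 and 1.13 kb in CBP and 3.06 and 2.60 kb in WT (-1.11 ± 0.08, adjusted p = 0.000418). Several named genes, some of them genes of later muscle, had no listed mark in either group. MYOG, which starts terminal differentiation, MEF2C, its partner, the skeletal actin ACTA1, the titin gene TTN, the Notch target HEYL and the growth factor IGF2 had no listed base at 0 h in any of the 4 libraries. Of 32 tested contractile genes 11 had a base at 0 h and 6 were shorter (with quantile scaling 1 shorter and 1 longer); the others passed the filter through their lengths at 60 h. XIRP1, an actin-binding repair protein, had none in CBP and 1.01 and 1.16 kb in WT (adjusted p = 0.000189), a call lost at a -log10 q of at least 5 and with lists of equal length. Of 25 tested genes of excitation-contraction coupling and the synapse 15 had a base at 0 h, and 8 were shorter (with quantile scaling 5 shorter and 2 longer). JPH2, a junctophilin of the triad, had none in CBP and 0.467 and 0.469 kb in WT. CHRNB1, an acetylcholine receptor subunit whose window holds POLR2A and other genes, had 3.48 and 3.30 kb in CBP and 6.54 and 5.84 kb in WT (-0.78 ± 0.06, adjusted p = 0.000487). Of the 13 tested fusion genes 10 had a base at 0 h and 3 were shorter (with quantile scaling 1 shorter and 3 longer), among them CDON, a receptor on the myoblast surface, with 0.897 and 0.820 kb in CBP and 1.69 and 1.82 kb in WT.

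Lists differ in how many of their tested genes had a base at 0 h, and a gene with none cannot be shorter. Over tested genes with a base, the shares shorter among the 25 lists of pathway and process genes ran from 21.4% of H3K4 methyltransferase and demethylase genes to 83.3% of extracellular matrix and fibroblast genes, beside 42.1% of all 12278 such genes. With quantile scaling, 13.8% of all such genes were shorter and 14.6% longer. Of 739 different list genes tested, 363 were shorter and 9 longer. In each list with 0 longer, limma gave 0 longer at an unadjusted p under 0.05 as well. In the matrix list 25 of 31 were shorter (with quantile scaling 13 shorter and 0 longer), with a median log2 change of -0.44. PDGFRA, the growth factor receptor of fibroblasts and interstitial progenitors, had 2.52 and 2.69 kb in CBP and 4.90 and 4.71 kb in WT (-0.77 ± 0.04, adjusted p = 0.000191). PDGFRB, its relative in pericytes, had none in CBP and 0.711 and 0.658 kb in WT, a call lost at a -log10 q of at least 5 and with lists of equal length. COL3A1, a fibrillar collagen, had 1.30 and 1.27 kb in CBP and 2.52 and 2.72 kb in WT (-0.80 ± 0.06, adjusted p = 0.000364). COL1A1, the major fibrillar collagen, had 2.32 and 2.05 kb in CBP and 3.03 and 3.25 kb in WT (-0.44 ± 0.09, adjusted p = 0.00967), and its call was lost after quantile scaling (adjusted p = 0.0725) and without WT replicate 2.

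**Figure D4:**
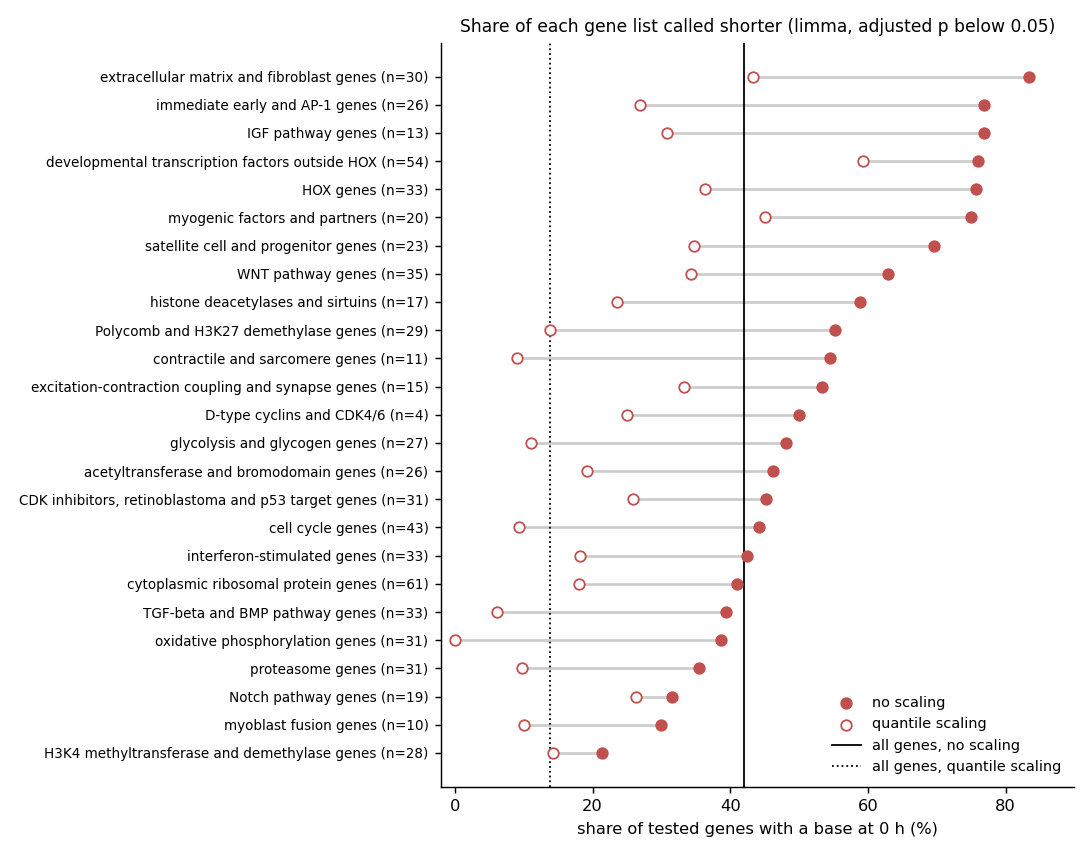
For each of 25 gene lists, the filled point is the percentage of tested genes with a base at 0 h (n) whose H3K4me3 was shorter in CBP than in WT and the open point the same after quantile scaling; the lines mark all such genes (42.1% solid, 13.8% dotted). The lists of matrix, immediate early, IGF, developmental, HOX, myogenic and satellite cell genes lie to the right of their lines at both scalings. So do those of WNT, deacetylase, coupling and synapse, D-type cyclin, acetyltransferase, cell cycle inhibitor and p53, and interferon genes. Those of fusion, proteasome, oxidative phosphorylation and TGF-beta genes lie to the left at both.

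Of 61 tested developmental transcription factors 41 were shorter and 0 longer (with quantile scaling 32 shorter and 2 longer), with a median log2 change of -0.61 beside -0.18 for all genes. NEUROG2, a neural determination factor, had 1.41 and 1.53 kb in CBP and 4.92 and 4.91 kb in WT (-1.46 ± 0.08, adjusted p = 0.000191). PAX5, a B cell factor, had none in CBP and 1.77 and 1.78 kb in WT. Of 34 tested HOX genes 25 were shorter and 1 longer (with quantile scaling 12 shorter and 1 longer). HOXB5 had none in CBP and 1.44 and 1.45 kb in WT (adjusted p = 0.000101), and its neighbour HOXB7 had 2.38 and 2.68 kb in CBP and 5.39 and 4.75 kb in WT (-0.88 ± 0.08, adjusted p = 0.000626). HOXA9 had 13.0 and 13.4 kb in CBP and 16.3 and 16.6 kb in WT (-0.30 ± 0.03, adjusted p = 0.000724), with no change left under quantile scaling (0.00). Neighbouring HOX genes share windows, so they are not separate observations. The longer one was HOXC4, with 0.902 and 0.827 kb in CBP and 0.442 and 0.542 kb in WT (0.46, adjusted p = 0.00415).

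In signalling pathways, the WNT list had 22 of 39 tested genes shorter (with quantile scaling 12 shorter and 0 longer) and the IGF list 10 of 14 (with quantile scaling 4 shorter and 2 longer). SFRP2, a secreted WNT antagonist, had none in CBP and 1.17 and 1.08 kb in WT, and LEF1, the nuclear partner of beta-catenin, had none in CBP and 1.74 and 1.42 kb in WT. Among the binding proteins of insulin-like growth factors, IGFBP5 had 1.15 and 1.12 kb in CBP and 2.23 and 2.18 kb in WT (-0.72 ± 0.07, adjusted p = 0.000871), IGFBP2 had 1.48 and 1.32 kb in CBP and 2.96 and 2.91 kb in WT, and IGFBP6 had none in CBP and 1.37 and 1.04 kb in WT, a call lost at a -log10 q of at least 5 and with lists of equal length. Of 20 Notch pathway genes 6 were shorter and 1 longer (with quantile scaling 5 shorter and 3 longer). HES5, a Notch target, had 0.472 and 0.506 kb in CBP and 1.81 and 1.45 kb in WT (-1.10 ± 0.08, adjusted p = 0.00042). HES1, its relative, had 1.62 and 1.83 kb in CBP and 2.1 and 2.11 kb in WT and was not called (adjusted p = 0.0518). TGF-beta and BMP genes had 13 of 34 shorter and 1 longer, and with quantile scaling 2 shorter and 6 longer. Of genes with a base, 31.6% of the Notch list and 39.4% of the TGF-beta list were shorter, beside 42.1% of all. TGFB1, the ligand that gives the pathway its name, had 2.54 and 2.28 kb in CBP and 2.69 and 2.57 kb in WT (adjusted p = 0.309). FST, follistatin, which binds activin and myostatin, had 2.87 and 2.33 kb in CBP and 3.97 and 3.75 kb in WT (-0.50 ± 0.08, adjusted p = 0.00529), a call that ended with quantile scaling (adjusted p = 0.0534). MSTN, myostatin, the brake on muscle mass, was the longer one, with 1.48 and 1.55 kb in CBP and 1.26 and 1.11 kb in WT (0.26 ± 0.06, adjusted p = 0.0129), and this call ended without CBP replicate 2, without WT replicate 2 and with windows of 1 kb.

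Immediate early genes shortened in 20 of 26 tested cases (with quantile scaling 7 shorter and 3 longer), with a median log2 change of -0.34. CTGF, a target of YAP and TGF-beta, had 1.18 and 1.21 kb in CBP and 2.72 and 3.0 kb in WT (-0.99 ± 0.05, adjusted p = 0.000168). JUNB, an AP-1 subunit, had 2.60 and 2.88 kb in CBP and 5.15 and 4.91 kb in WT (-0.77 ± 0.05, adjusted p = 0.000355). JUN had 3.09 and 3.07 kb in CBP and 3.97 and 4.02 kb in WT (-0.33 ± 0.06, adjusted p = 0.00558), which did not pass with lists of equal length, after quantile scaling (adjusted p = 0.134) or at a -log10 q of at least 5. FOS, with 2.56 and 2.96 kb in CBP and 3.23 and 2.89 kb in WT, overlapped between groups. The inhibitors of MyoD family factors differed in their values. ID3 had 2.74 and 2.19 kb in CBP and 4.17 and 4.50 kb in WT (-0.71 ± 0.13, adjusted p = 0.00638), and ID1 had 3.84 and 3.79 kb in CBP and 4.22 and 4.10 kb in WT (adjusted p = 0.219); the difference between ID3 and ID1 was not tested.

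Cell cycle genes were close to the background, with 19 of 43 shorter and 0 longer (with quantile scaling 4 shorter and 4 longer). RRM2, a subunit of ribonucleotide reductase, had 3.13 and 3.10 kb in CBP and 4.36 and 4.13 kb in WT (-0.39 ± 0.04, adjusted p = 0.00136; 0.0514 with quantile scaling). CCND1, cyclin D1 (chromosome 2, 3621242 to 3633380), had 3.52 and 3.57 kb in CBP and 6.49 and 5.82 kb in WT (-0.71 ± 0.05, adjusted p = 0.000452), and CCND2, cyclin D2, had 3.63 and 3.53 kb in CBP and 4.74 and 4.78 kb in WT (-0.37 ± 0.07, adjusted p = 0.00882; 0.151 with quantile scaling). MYC had 5.54 and 5.33 kb in CBP and 5.79 and 5.67 kb in WT (-0.07 ± 0.04, adjusted p = 0.22), and turned to 0.19 with quantile scaling (adjusted p = 0.0193). Among cell cycle inhibitors and p53 targets 14 of 31 were shorter (with quantile scaling 8 shorter and 3 longer). That was 45.2%, beside 42.1% of all genes with a base, and 25.8% beside 13.8% with quantile scaling. CDKN1A, the p53 target p21, had 2.59 and 2.35 kb in CBP and 3.53 and 3.84 kb in WT (-0.49 ± 0.06, adjusted p = 0.00156), a call lost at a -log10 q of at least 5. CDKN1C, the inhibitor p57, had none in CBP and 0.477 and 0.426 kb in WT, and its call was lost under the same limit and with lists of equal length. ZMAT3, an RNA-binding p53 target, had 2.67 and 2.66 kb in CBP and 3.77 and 3.83 kb in WT (-0.44 ± 0.04, adjusted p = 0.000526).

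The genes of the inhibitor's own targets differed little in length. CREBBP, which encodes CBP, had 1.05 and 1.06 kb in CBP and 1.21 and 1.21 kb in WT (adjusted p = 0.561), and EP300, which encodes p300, had 3.51 and 3.31 kb in CBP and 3.78 and 3.9 kb in WT (-0.15 ± 0.04, adjusted p = 0.0355). The EP300 call was lost without CBP replicate 2, WT replicate 1 or WT replicate 2, and its value turned to 0.08 with quantile scaling and to 0.10 with windows of 1 kb. KAT2B, the acetyltransferase PCAF, had 1.33 and 0.995 kb in CBP and 2.75 and 2.63 kb in WT (-0.95 ± 0.10, adjusted p = 0.00109). Of 26 acetyltransferase and bromodomain genes 12 were shorter and 1 longer (with quantile scaling 5 of each). Of 17 deacetylases and sirtuins 10 were shorter (with quantile scaling 4 shorter and 0 longer), with HDAC4, a repressor of MEF2 factors, at 0.795 and 0.751 kb in CBP and 2.44 and 2.13 kb in WT (-1.13 ± 0.09, adjusted p = 0.00044) and HDAC11 at none in CBP and 0.943 and 0.929 kb in WT. Among Polycomb and H3K27 demethylase genes 16 of 31 were shorter (with quantile scaling 4 shorter and 2 longer), and EZH2, the H3K27 methyltransferase, had 1.78 and 1.69 kb in CBP and 2.67 and 2.86 kb in WT (-0.54 ± 0.07, adjusted p = 0.00162). Of genes with a base, 46.2% of the acetyltransferase, 58.8% of the deacetylase and 55.2% of the Polycomb list were shorter, beside 42.1% of all. With quantile scaling these shares were 19.2, 23.5 and 13.8%, beside 13.8% of all.

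The list of H3K4 methyltransferase and demethylase genes also holds associated proteins that are not enzymes, such as WDR5. Of its 29 tested genes 6 were shorter and 1 longer, and with quantile scaling 4 were shorter and 10 longer. KMT2A, the methyltransferase MLL1, had 3.44 and 3.45 kb in CBP and 3.84 and 3.74 kb in WT (adjusted p = 0.0768). KMT2D, the enhancer methyltransferase MLL4, had 4.96 and 4.74 kb in CBP and 5.28 and 5.55 kb in WT (adjusted p = 0.0599). SETD1A, a SET1 family enzyme, had 2.18 and 2.54 kb in CBP and 2.94 and 3.42 kb in WT (adjusted p = 0.0615), and KDM5B, an H3K4 demethylase, had 3.85 and 3.70 kb in CBP and 4.78 and 4.90 kb in WT (adjusted p = 0.0536). In these 4 genes the CBP libraries lay below the WT libraries without passing the test. PAXIP1, which links MLL complexes to chromatin, had 3.17 and 3.15 kb in CBP and 4.81 and 4.76 kb in WT (-0.53 ± 0.04, adjusted p = 0.000465), and SETD7, a lysine methyltransferase, had 2.68 and 2.69 kb in CBP and 4.19 and 4.49 kb in WT (-0.60 ± 0.06, adjusted p = 0.00104). SMYD2, a lysine methyltransferase of histones and other proteins, was the longer one, with 0.720 and 0.628 kb in CBP and 0.372 and 0.371 kb in WT (0.43 ± 0.06, adjusted p = 0.00309), a call lost at a -log10 q of at least 5.

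Without scaling, the housekeeping lists lay near the share of all genes. Cytoplasmic ribosomal protein genes had 25 of 61 shorter and 1 longer (with quantile scaling 11 shorter and 9 longer). Oxidative phosphorylation genes had 12 of 31 shorter (with quantile scaling 0 shorter and 2 longer) and proteasome genes 11 of 31 (with quantile scaling 3 of each). The 3 lists had medians of -0.15, -0.18 and -0.15. Glycolysis and glycogen genes had 13 of 30 shorter and 2 longer, and with quantile scaling 3 shorter and 7 longer. Of genes with a base, 48.1% of this list and 42.4% of interferon-stimulated genes were shorter, beside 42.1% of all. ALDOA, the muscle aldolase, had 4.04 and 4.02 kb in CBP and 5.53 and 5.57 kb in WT (-0.42 ± 0.04, adjusted p = 0.000881). Interferon-stimulated genes had 14 of 33 shorter and 1 longer (with quantile scaling 6 shorter and 5 longer), and IFIT2, an antiviral RNA-binding protein, had 0.350 and 0.325 kb in CBP and 1.18 and 1.25 kb in WT (-1.03 ± 0.07, adjusted p = 0.000343). Longer list genes besides HOXC4, MSTN and SMYD2, named here after their values were seen, included MAML2, GPI, ALDOC, IRF1 and BRD1, with log2 changes from 0.19 in ALDOC to 0.29 in IRF1. None of these 5 calls held in every alternative: IRF1 and BRD1 turned to -0.19 and -0.020 with windows of 1 kb, and MAML2, ALDOC and GPI were lost without at least 1 library. Of marker genes of other cell types, ERG, an endothelial and haematopoietic factor, had 0.606 and 0.872 kb in CBP and 2.46 and 2.40 kb in WT, and ACTA2, smooth muscle actin, had 1.33 and 1.25 kb in CBP and 2.73 and 2.52 kb in WT (adjusted p = 0.000729 and 0.000255).

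The 10 steepest shortenings among called genes with a symbol and a base in all 4 libraries included the following. VGF, a secreted neuropeptide precursor (chromosome 3, 8888502 to 8891399), had 0.065 and 0.436 kb in CBP and 3.57 and 3.47 kb in WT (log2 change -2.47 ± 0.33, adjusted p = 0.00232). BCL11B, a T cell and neuronal factor, had 0.879 and 0.820 kb in CBP and 4.02 and 3.84 kb in WT (-1.71 ± 0.11, adjusted p = 0.000252). PAX6, the eye factor, had 0.352 and 0.622 kb in CBP and 2.94 and 2.45 kb in WT (-1.71 ± 0.25, adjusted p = 0.00309). CCL2, a chemokine that draws monocytes, had 0.571 and 0.247 kb in CBP and 2.27 and 2.52 kb in WT (-1.69 ± 0.16, adjusted p = 0.000753). DOK7, which activates the receptor kinase of the neuromuscular junction, had 0.343 and 0.303 kb in CBP and 1.94 and 1.90 kb in WT (-1.55 ± 0.17, adjusted p = 0.00112). HOXB6 had 0.588 and 0.986 kb in CBP and 3.11 and 3.15 kb in WT (-1.51 ± 0.14, adjusted p = 0.000703). SLC19A1, the folate carrier, had 0.267 and 0.245 kb in CBP and 1.66 and 1.65 kb in WT (-1.51 ± 0.06, adjusted p = 0.000101). ZNF777, BICDL2 and ARHGEF7 completed the 10, with log2 changes of -1.67, -1.59 and -1.49. All 10 calls held with quantile scaling.

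Some genes had the mark in both WT libraries and none listed in CBP. Among called genes with a symbol other than a LOC identifier, the 6 with the longest marks were GFI1 (2.33 and 2.41 kb in WT), PAPPA, a protease of IGF-binding proteins (2.16 and 1.76 kb), BCOR, a Polycomb-linked corepressor (2.12 and 1.57 kb), FGF19, a fibroblast growth factor (1.73 and 1.91 kb), PAX5, and SREBF1, the master factor of lipid synthesis (1.26 and 2.21 kb). Their adjusted p values ran from 8.39e-05 in GFI1 and PAX5 to 0.00148 in SREBF1, and the SREBF1 call was lost at a -log10 q of at least 5 and with lists of equal length. Marks present in CBP alone were shorter. TRIM14, an antiviral adaptor, had 0.816 and 0.737 kb in CBP, and RGCC, a regulator of the cell cycle, had 0.595 and 0.754 kb. MGARP, a mitochondrial protein, had 0.485 and 0.580 kb, and ITGB3, integrin beta 3, had 0.483 and 0.418 kb. KIRREL2 and APLP1 share 1 stretch of 0.578 and 0.477 kb. At a -log10 q of at least 5 the calls of RGCC, ITGB3, KIRREL2 and APLP1 were lost.

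The 10 called genes with a symbol and the largest log2 increase had at most 1.26 kb in any WT library. On this scale the same gain in bp gives a larger log2 change in a short mark than in a long one. ANGPTL4, a secreted inhibitor of lipoprotein lipase, had 1.48 and 1.58 kb in CBP and 0.985 and 0.252 kb in WT (log2 change 0.94 ± 0.28, adjusted p = 0.0393), a call that ended without CBP replicate 1, without CBP replicate 2 and with windows of 1 kb. TYSND1, a peroxisomal protease whose window holds 3 other genes, had 1.39 and 1.39 kb in CBP and 0.586 and 0.434 kb in WT (0.91 ± 0.08, adjusted p = 0.000583), and turned to -0.15 with windows of 1 kb. TSPYL2, a chromatin factor, had 0.627 and 1.04 kb in CBP and 0.319 and 0.083 kb in WT (0.93 ± 0.20, adjusted p = 0.0124), and was not called without CBP replicate 2. GCAT, an enzyme of threonine breakdown, had 2.47 and 2.02 kb in CBP and 0.859 and 1.26 kb in WT (0.83 ± 0.13, adjusted p = 0.00429). KHDRBS3, a splicing regulator, had 0.775 and 0.918 kb in CBP and 0.299 and 0.245 kb in WT (0.80 ± 0.08, adjusted p = 0.000859), a call lost at a -log10 q of at least 5. IKBKE, a kinase of the interferon response, had 1.06 and 1.07 kb in CBP and 0.512 and 0.498 kb in WT (0.64 ± 0.05, adjusted p = 0.000545). RCOR2, a corepressor, ZNF331, MAATS1 and PHYH, a peroxisomal oxidase, completed the 10 with log2 changes of 0.77, 0.76, 0.68 and 0.67, and the RCOR2 call was lost without WT replicate 2.

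The other marks of the same cells were set beside these regions as a description. The H3K27ac lists held 10972 and 8969 peaks in CBP and 19531 and 17338 in WT, and the H3K27me3 lists 19317 and 14723 in CBP and 1338 and 2660 in WT, so shares of overlap in CBP and WT follow list length as well. H3K27me3 of the CBP libraries overlapped 11.7 and 8.14% of lost H3K4me3 regions and 2.46 and 1.59% of held ones. Among regions of 1000 to 2000 bp in WT, 17.4% of the 92 with H3K27me3 in both CBP libraries were lost, against 1.38% of the 5649 with it in neither. Held regions of that width had a median log2 change of -0.65 in the first set and -0.20 in the second. At 2000 to 4000 bp the medians were -0.60 over 29 regions and -0.21 over 2994. At 500 to 1000 bp they were -0.31 and -0.23, and under 500 bp -0.07 in both sets. Genes with a base in all 4 libraries were split by H3K27me3 anywhere in their windows, without matching for length. Of the 788 with it in both CBP libraries 42.0% were shorter (median log2 change -0.21), against 41.4% of the 10260 with it in neither (-0.17). For H3K27ac the share of genes called differed among its states, with 50.8% shorter of 2035 genes that had it in both WT and neither CBP library, 44.9% of 1800 that had it in all 4, and 37.1% of 5299 that had it in none. Between 500 and 1000 bp, 27.9% of regions with H3K27ac in both WT libraries were lost, against 14.0% of those with it in neither. Under 500 bp the shares were 72.9 and 47.4%. The gap was small in wider regions, with 2.51 and 1.67% at 1000 to 2000 bp. At 2000 to 4000 bp 2 of 1538 and 3 of 1068 regions were lost. Median log2 changes of held regions follow, with H3K27ac in both WT libraries first and in neither second. They were -0.13 and -0.06 under 500 bp and -0.29 and -0.22 at 500 to 1000 bp. At 1000 to 2000 bp they were -0.20 in both sets and at 2000 to 4000 bp -0.21 in both. Above 4000 bp they were -0.28 and -0.24.

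**Figure D5:**
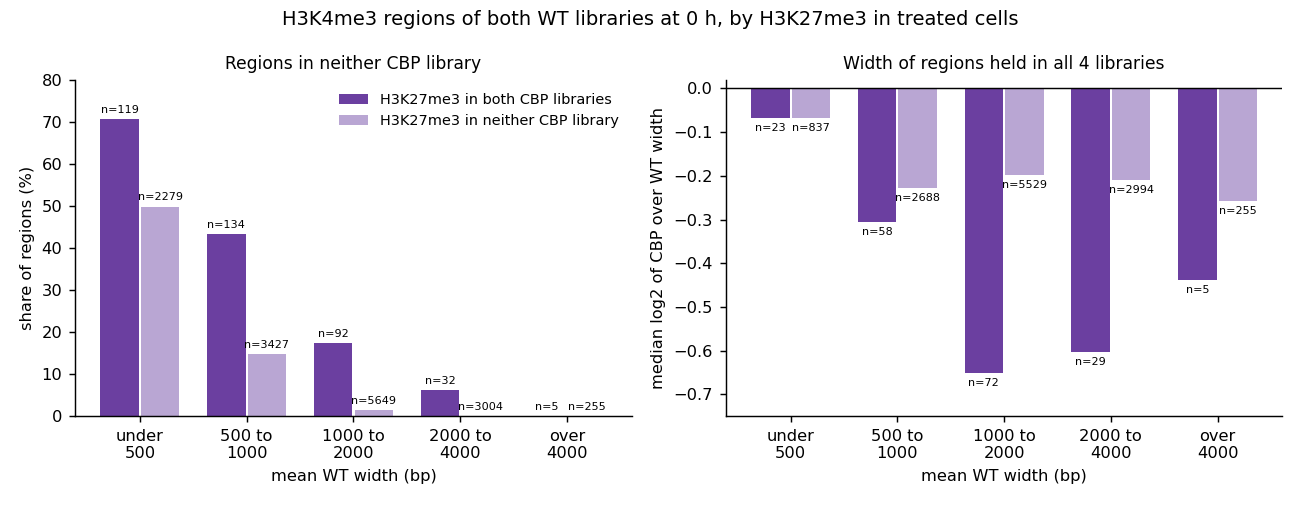
For H3K4me3 regions of both WT libraries at 0 h, split by mean WT width (bp), dark bars are regions overlapping H3K27me3 in both CBP libraries and pale bars regions overlapping it in neither. The left panel gives the percentage absent from both CBP libraries and the right panel the median log2 of CBP over WT width in regions held in all 4, which is -0.65 against -0.20 at 1000 to 2000 bp; n is the number of regions.

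The response at 0 h differed from that at 60 h. The interaction in the same limma fit called 4739 genes (36.7%) whose CBP effect was lower at 0 h than at 60 h and 440 (3.41%) where it was higher. With quantile scaling these were 1396 and 1499. Of the 5164 genes shorter at 0 h, 3692 had an effect that was lower than at 60 h. The effect at 0 h enters both calls, so the choice of genes raises this share and it is no separate support. PAX7, CCND2 and FOS were among those for which the interaction was not called (adjusted p = 0.204, 0.223 and 0.212). CDKN1A, with 3.84 kb in CBP and 5.95 kb in WT on average at 60 h, also differed little between times (log2 difference 0.08, adjusted p = 0.488). Of the 1990 regions lost at 0 h, 57.8% were in both CBP libraries at 60 h and 57.7% in both WT libraries at 60 h. Of the 170 gained ones, 76.5% were in both CBP libraries and 65.9% in both WT libraries at 60 h.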

How the data were processed

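Chromatin was profiled by CUT&Tag in porcine muscle satellite cells. Per the submitters' processing notes, Trimmomatic, MACS2 2.1.0 and the build Sscrofa11.1 were used; no source used here gives the aligner, the peak-calling options, the control or the read depth. The authors deposited 1 narrowPeak list per library, not pooled, with peak positions in bp and the peak caller's -log10 p-value and -log10 q-value, which served only to filter or order peaks within a list. Since depth is unknown, no counting interval is given. The 8 IgG samples were not analysed here.

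Samples were grouped by their titles. Overlapping peaks of the 4 libraries at 0 h were merged into regions, and a library held a region it overlapped by at least 1 bp. Gene ends came from the RefSeq table of 19550 protein-coding genes on Sscrofa11.1, which gives no strand. For each gene, base pairs under peaks within 5 kb of either end were summed, and a gene was tested when 2 or more of the 8 H3K4me3 libraries had 200 bp or more. The values tested were log2(bp + 500), so a log2 change understates the change of short marks, and one against no listed base depends on the 500 bp. Genes with overlapping windows can share peaks, and 9291 of the 12908 tested genes had a window overlapping that of another gene. limma 3.58.1 (R 4.3.3), with the trend and robust options of eBayes, was fitted to all 8 libraries with 4 residual degrees of freedom, and to log2 region widths of the 4 libraries at 0 h with 2. Benjamini-Hochberg adjustment ran over all genes or regions, and calls were made at an adjusted p below 0.05. Both fits were tested on simulated data first. Single values per library were compared by exact permutation. Regions and counts were made with Python 3.11.15, numpy 2.4.6, pandas 2.3.3 and scipy 1.17.1.

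Named genes, which excluded LOC identifiers, were the 10 called genes with the largest and the 10 with the smallest log2 change among those with a base in all 4 libraries at 0 h, the 6 with the longest mark in each group and none in the other, a set panel of regulators, and at most 4 genes per list with the smallest adjusted p. The genes, lists and tests were chosen with earlier results of these data known, and a few results that the rule selects are not reported here. The alternatives were a minimum -log10 q of 5, lists cut to equal length, joined peaks, a 25% overlap, a distance of 5 kb, windows of 1 kb, 100 or 2000 bp added, no filter, quantile scaling, fewer libraries or genes, a replicate block and leaving out each library.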

Additional observations from a re-analysis of the deposited data

Results flagged for a closer look

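The effect of the inhibitor on H3K4me3 length differed between 0 h and 60 h in many genes. The interaction term of the limma fit, the log2 CBP effect at 0 h minus that at 60 h, was called in 4739 genes with a lower and 440 with a higher effect at 0 h (adjusted p below 0.05). These were 36.7% and 3.41% of the 12908 genes tested. Among the 105 tested genes named in the text it was called in 77, of which 60 were lower at 0 h. Many of the named genes were chosen by their effect at 0 h, which is part of the interaction, so this count is raised by the choice. Where a group had no listed base at either time, the size of the difference depends on the 500 bp added. Each value below is that log2 difference.

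Of the myogenic and muscle genes, MYOD1 was at -1.44, MYF5 at -0.44, PAX3 at -0.34, MSC at -0.30, DES at -0.97, CDH15 at -0.91, CDON at -0.68, XIRP1 at -1.53, JPH2 at -0.82, CHRNB1 at -0.73, DOK7 at -2.09 and MSTN at -0.29. MYOG at 0.50, MEF2C at 3.13, ACTA1 at 1.01, TTN at 1.71 and IGF2 at 0.65 had no listed base at 0 h, so their differences come from the effect at 60 h alone. HEY1 was at -0.85, HES5 at -1.11 and ID3 at -0.90.

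Of signalling and matrix genes, SFRP2 was at -1.61, LEF1 at -2.15, IGFBP2 at -1.39, IGFBP5 at -0.48, IGFBP6 at -1.21, PAPPA at -2.46, FGF19 at -0.53, CCL2 at -1.65, VGF at -1.67, PDGFRA at -0.94, PDGFRB at -1.48, COL3A1 at -0.42, CTGF at -1.12 and JUNB at -0.89. Cell cycle and p53 genes gave -0.44 in CCND1, -0.43 in RRM2 and -0.39 in ZMAT3. Among developmental factors the values were -1.0 in HOXB6, -1.08 in HOXB5, -0.46 in HOXB7, -0.34 in HOXA9, -1.07 in NEUROG2, -2.73 in PAX5, -2.06 in BCL11B, -1.64 in GFI1 and -1.23 in ERG.

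Of chromatin genes, EP300 was at -0.34, KAT2B at -0.83, HDAC4 at -1.24, HDAC11 at -1.64, EZH2 at -0.53, BCOR at -1.35, KMT2D at -0.25, KDM5B at -0.48, PAXIP1 at -0.53, SETD7 at -0.55 and SMYD2 at 0.51. Other genes with a lower effect at 0 h were ZNF777 at -1.87, BICDL2 at -1.76, SLC19A1 at -1.69, ARHGEF7 at -0.62, SREBF1 at -2.36, ALDOA at -0.34, IFIT2 at -0.50, ACTA2 at -0.31 and IRF1 at -0.38. Those with a higher effect at 0 h were TSPYL2 at 0.88, TYSND1 at 0.84, GCAT at 0.61, KHDRBS3 at 0.76, ZNF331 at 0.47, MAATS1 at 0.73, IKBKE at 0.69, TRIM14 at 1.26, RGCC at 1.5, ITGB3 at 0.95 and GPI at 0.32.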

How the results depend on the processing

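The lower peak number, covered length and share far from genes in CBP kept their direction under all alternatives run, and with any 1 library left out the 3 ratios of CBP to WT lay at 0.865 to 0.893, 0.785 to 0.794 and 0.794 to 0.811. At a -log10 q of at least 5 the ratio of peak numbers was 0.905, against 0.879 for the full lists, and that of far shares 0.842, against 0.803. With lists of equal length the ratio of covered length was 0.819, against 0.789, and that of far shares 0.933. Lost regions numbered 1322 at that -log10 q and 903 with equal lists, against 1990, and 2267 to 3206 with a library left out. Gained regions numbered 281 with equal lists and 108 with peaks within 500 bp joined, against 170, and 242 to 372 with a library left out. Quantile scaling moved the genes to 1811 longer and 1698 shorter, the differences between times to 1499 higher and 1396 lower at 0 h, and region widths to 648 wider and 900 narrower. Genes with no listed base in any library at 0 h are tied under that scaling, which placed 17 of them, MYOG and ACTA1 included, among the longer ones. Windows of 1 kb gave 3222 shorter genes and 2977 with an effect lower at 0 h. With a library left out 3582 to 3912 genes were shorter and 122 to 169 longer, 3586 to 3931 effects were lower and 364 to 411 higher at 0 h, and 0 regions were called narrower and 0 wider by limma with 1 residual degree of freedom, where 3803 to 4681 were narrower and 220 to 280 wider at an unadjusted p under 0.05. Of the 105 tested genes that the text names, 89 were called, and 11 of these lost the call when some library was left out. Values that turned were TYSND1 at -0.15, EP300 at 0.10, IRF1 at -0.19 and BRD1 at -0.020 with windows of 1 kb, and MYC at 0.19 and EP300 at 0.085 with quantile scaling. The cause of these changes was not tested.

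Libraries with the same replicate number did not deviate together in peak length (correlations of -0.04 to 0.04 over genes). That cannot show whether they shared a culture or batch. With the replicate number as a block, 4855 genes were shorter and 150 longer, 4382 effects were lower and 407 higher at 0 h, and 2802 regions were narrower and 80 wider. Under the block the call of EP300 was lost and HES1 and SETD1A were called. A fit on transcription starts alone was not run, since the table of genes gives no strand. Without read depth, a shorter mark and a shallower library cannot be told apart, and a gene with no listed base may hold signal below the peak caller's threshold. The 2 libraries a group allow no exact p below 0.33.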
